A study of Homo sapiens with 16 samples.

Results

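The respiratory chain and ATP synthase subunits described here are 100 of the 19356 protein-coding genes quantified, 87 encoded in the nucleus and 13 in the mitochondrial genome. They were chosen by gene symbol alone: the NDUFA, NDUFB, NDUFC, NDUFS and NDUFV families and SDHA to SDHD, the UQCR genes and CYC1, the COX4 to COX8 genes, the ATP5F1, ATP5M and ATP5P genes, and the protein-coding MT- genes. Of them, 43 belong to complex I, 4 to complex II, 11 to complex III, 21 to complex IV and 21 to complex V, with NDUFA4 counted in complex IV, where its protein sits despite its name.

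The respiratory chain passes electrons from NADH (complex I) and succinate (complex II) through complex III and cytochrome c to oxygen at complex IV. Complexes I, III and IV pump protons out of the mitochondrial matrix, and ATP synthase (complex V) lets them back to make ATP. Complexes I, III, IV and V each combine nuclear subunits with a few encoded in mitochondrial DNA, whereas complex II is wholly nuclear. In cells held at low oxygen, the hypoxia-inducible factors are known to exchange some complex IV subunits and to divert pyruvate from the mitochondria through PDK1.

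RNA was sequenced from 4 stages of the isogenic BJ model, a human foreskin fibroblast line taken stepwise to malignancy, each kept for 6 passages at atmospheric or at 3% oxygen. The primary stage is unmodified BJ cells, the immortalized stage is BJ hTERT+ (telomerase), the transformed stage is BJ hTERT+ SV40+ (viral oncoproteins), and the metastasizing stage is BJ hTERT+ SV40+ Ras-G12V (mutant RAS). Every stage after the first therefore carries hTERT, and the last 2 stages also carry SV40. Each of the 8 groups holds 2 libraries, a and b, from plates grown in parallel, and each stage is 1 cell line, so p-values measure the spread between plates.

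Levels are TPM, the share of a library's reads scaled by transcript length, summed over the transcripts of a gene. The authors' quantification fixes the sum of each library, and TPM hold no read counts, so the depth of each library is unknown. Fold changes are on the log2(TPM + 0.5) scale. In bulk RNA, fewer cells that use a gene and less of its RNA per cell cannot be told apart. All 10 fibroblast markers were at 1 TPM or more in every library (summed level 4674 to 25762 TPM), both endothelial markers listed were under 1 TPM throughout, and the epithelial and muscle lists summed to at most 3.64 and 2.26 TPM. The leukocyte list summed to 43.4 to 166 TPM, of which CD68, a lysosomal protein that fibroblasts also make, held most, and CD3E was at 0 in all 16 libraries. PTPRC and CD14 complete this list, of which 1 marker was under 1 TPM in every library. From the primary to the immortalized stage at atmospheric oxygen 2 of 3 leukocyte markers tested were higher (median log2 fold change 1.69). From the immortalized to the transformed stage 2 of 2 tested were lower (median -1.25).

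Libraries also differed in base composition. In each library the median log2 deviation of GC-poor genes was subtracted from that of GC-rich genes (lowest and highest decile by GC content). The difference ran from -0.169 to 0.689 in the 8 atmospheric libraries and from -0.522 to 0.121 in the 8 libraries at 3% oxygen. Since this trend moved with the oxygen level, counts after a correction for GC content are given beside the oxygen results. Its part in single genes was not tested.

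Promoters of 68 of the 87 nuclear members were matched by symbol in RefSeq (GRCh38.p14). In the 250 bases before the start, the NRF1 motif (GCGCA, any base, then GCGC) occurred on either strand in 15 of 68 member promoters (22.1%), against 5.53% of 27305 promoters, and the ETS motif CCGGAAG, bound by GABPA, in 25%, against 8.82%. NRF1 and GABPA are known activators of respiratory chain genes. The 27305 promoters are 1 for each symbol available, more than the 19356 protein-coding genes quantified. Member promoters were also richer in GC (median 61.2% against 58%), and the part of this in the motif shares was not tested. The shorter HIF core ACGTG occurred in 22.1% of member promoters, against 18.7% of all, the GC box GGGCGG in 55.9% against 42.3%, the TATA box TATAAA in 10.3% against 11.1%, and the YY1 motif AAGATGGCG in 1.47% against 0.641%. The sequences of 4 members that rose at the step to the transformed stage by the study's thresholds are shown 5′ to 3′, with matches to the NRF1, ETS and HIF motifs in capitals. NDUFA9 holds 1 NRF1 match and COX8A 1 ETS match, ATP5F1C holds an NRF1 match that reads the same on both strands, and NDUFS8 holds none of these letters in its window.
NDUFS8, chr11:68030431-68030680, plus strand: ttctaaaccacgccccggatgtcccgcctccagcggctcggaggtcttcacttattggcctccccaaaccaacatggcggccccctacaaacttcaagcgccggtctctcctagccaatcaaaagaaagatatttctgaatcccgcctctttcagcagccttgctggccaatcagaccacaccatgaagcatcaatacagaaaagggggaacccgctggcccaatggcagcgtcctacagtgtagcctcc
NDUFA9, chr12:4648864-4649113, plus strand: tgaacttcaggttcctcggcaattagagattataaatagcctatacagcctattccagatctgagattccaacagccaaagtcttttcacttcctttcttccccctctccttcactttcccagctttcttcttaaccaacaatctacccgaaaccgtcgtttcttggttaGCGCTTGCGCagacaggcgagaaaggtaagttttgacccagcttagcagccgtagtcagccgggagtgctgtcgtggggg
COX8A, chr11:63974370-63974619, plus strand: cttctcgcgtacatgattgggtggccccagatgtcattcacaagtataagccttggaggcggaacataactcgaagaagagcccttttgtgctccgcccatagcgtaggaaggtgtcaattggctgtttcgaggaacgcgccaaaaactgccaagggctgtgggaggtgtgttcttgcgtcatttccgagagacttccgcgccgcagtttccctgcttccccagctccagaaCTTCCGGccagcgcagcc
ATP5F1C, chr10:7787927-7788176, plus strand: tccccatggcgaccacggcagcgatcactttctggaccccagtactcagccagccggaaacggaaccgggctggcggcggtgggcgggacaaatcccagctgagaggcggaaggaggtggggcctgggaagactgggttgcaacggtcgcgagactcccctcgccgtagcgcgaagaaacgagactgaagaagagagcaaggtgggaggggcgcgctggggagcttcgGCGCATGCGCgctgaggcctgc

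Most nuclear members were well expressed: 70 of 87 exceeded 10 TPM in every library and 36 exceeded 100 TPM in every library. The highest medians over the 16 libraries belonged to ATP5MF (785 TPM), UQCRQ (654 TPM), COX4I1 (623 TPM) and ATP5F1B (605 TPM). ATP5MGL, COX4I2, COX6A2, COX7B2 and COX8C did not reach the filter of 1 TPM as a group mean in any oxygen comparison and were not tested there. UQCRHL is a near copy of UQCRH, and its values, above 0 in 3 libraries only and at most 7.86 TPM, are uncertain. The low levels of COX6B1 (1.23 to 15 TPM) and COX7B (4.29 to 13.5 TPM) are uncertain too, since the main transcripts of both genes, and of COX7A2, UQCRHL and NDUFB6, are not among those matched here. The pseudogenes COX7BP6 and COX6B1P5, near copies of these genes, reached 142 and 119 TPM in single libraries.

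The oxygen comparisons ask how each stage answered moderate hypoxia. The transformed stage had the most nuclear members called lower at 3% oxygen. There, 26 of 82 members tested were lower and 2 were higher at 3% oxygen (limma, Benjamini-Hochberg adjusted p under 0.05), 65 had a log2 fold change below 0, and the median was -0.35, against 0.01 over all 12242 genes tested. Over all genes, 15.4% were lower and 18.8% higher. Complex I held 15 of the lower members (of 36 tested), complex II 1 (of 4), complex III 2 (of 10), complex IV 2 (of 14) and complex V 6 (of 18). No member passed the study's own thresholds (adjusted p under 0.01 and a log2 fold change beyond 1), which 7.48% of all genes did. An unadjusted p under 0.05 was reached by 40 of the 82. The share of all genes at that unadjusted cut is not given, here or below, so such counts cannot be read as many or few. Named genes were largely chosen by their calls or values. Where the libraries of such a gene are said not to overlap, this describes its levels and adds no support to its call. The share of all genes without overlap is not given.

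**Figure D1:**
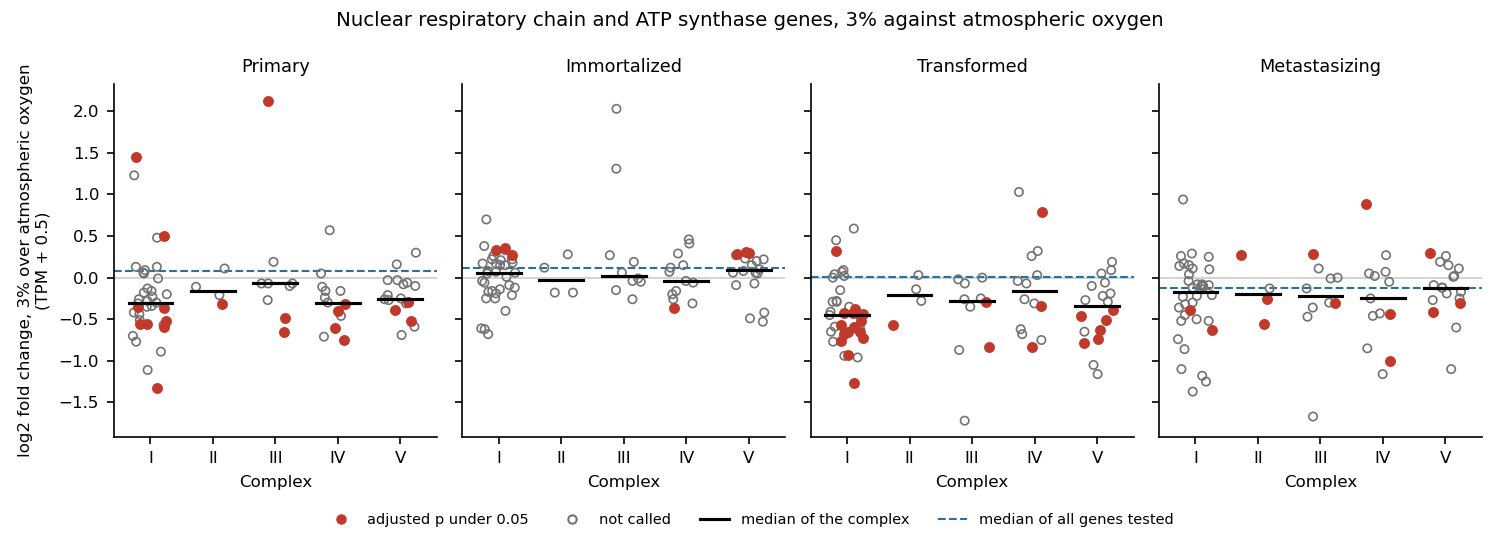
Log2 fold change of each nuclear member at 3% over atmospheric oxygen (y axis, on TPM + 0.5) by complex (x axis) in the 4 stages. Each point is a gene, filled red at an adjusted p under 0.05 (limma), the black bar is the median of the complex and the dashed line the median of all genes tested; in the transformed panel the median over all members is -0.35 against 0.01 for all genes.

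The catalytic beta subunit of ATP synthase, ATP5F1B (chr12:57031959-57039768, GRCh37, minus strand), stood at 1041 and 1036 TPM in the transformed atmospheric libraries and at 654 and 590 TPM at 3% oxygen. No library of another group reached the transformed atmospheric level: the others lay between 494 and 846 TPM. Its log2 fold change with 3% oxygen was -0.74 ± 0.10 (SE, adjusted p = 0.000419), and its partner ATP5F1A, the alpha subunit, fell by 0.46 on the log2 scale (SE 0.09, adjusted p = 0.00347). The c-ring genes ATP5MC3 (log2 fold change -0.79) and ATP5MC1 (-0.63) fell as well, whereas ATP5MC2, a further gene for the same c protein, had a log2 fold change of 0.09 (adjusted p = 0.738). ATP5MC3 did not pass with its main transcript alone (-0.40, adjusted p = 0.182).

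In complex I of the transformed stage the falls with the smallest adjusted p were NDUFB9 (log2 fold change -0.76 ± 0.08, adjusted p = 6.57e-05), an accessory subunit of the membrane arm, and NDUFS1 (-0.52 ± 0.08, adjusted p = 0.00102), the large iron-sulfur core subunit. With its main transcript alone, NDUFS1 had 0.42 (adjusted p = 0.0619). NDUFV1, which carries the flavin where NADH is oxidized, fell by 0.65 on the log2 scale (adjusted p = 0.0236), and NDUFA7 had a log2 fold change of -0.93 (adjusted p = 0.00174) that did not pass with coding transcripts only (-1.10, adjusted p = 0.101). NDUFC1 had the largest fall among members called, with a log2 fold change of -1.27 (adjusted p = 0.049), and it did not pass with coding transcripts only (-0.22, adjusted p = 0.461). NDUFS4, an accessory subunit, was higher (0.32 ± 0.10, adjusted p = 0.0338). Among the largest log2 fold changes of this stage, those of UQCRHL (-1.72), ATP5F1D (-1.16), COX6B2 (1.03) and NDUFV2 (0.59) did not pass (adjusted p from 0.0644 to 0.349).

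Cytochrome c1, CYC1, stood at 209 and 202 TPM in the transformed atmospheric libraries and at 107 and 125 TPM at 3% oxygen, and the log2 fold change was -0.83 ± 0.12 (adjusted p = 0.000443). The groups did not overlap, and both atmospheric libraries were above every other library of the series, of which the highest was 154 TPM. NDUFA4 (chr7:10971570-10979780, minus strand) stood at 59.5 and 53.9 TPM at atmospheric and at 33.3 and 30.1 TPM at 3% oxygen, with a log2 fold change of -0.83 ± 0.11 (adjusted p = 0.000388). COX7A2L (chr2:42560686-42652228, minus strand), a factor that joins complexes III and IV into supercomplexes, moved the other way. It stood at 130 and 125 TPM at atmospheric and at 227 and 215 TPM at 3% oxygen, with a log2 fold change of 0.79 ± 0.11 (adjusted p = 0.00045). UQCRFS1, the Rieske iron-sulfur protein of complex III, fell (-0.29 ± 0.07, adjusted p = 0.0102).

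The GC trend was 0.411 and 0.319 in the transformed atmospheric libraries and -0.262 and 0.0241 at 3% oxygen, and members above the median GC content of 47.5% had a median log2 fold change of -0.58 against -0.25 for the rest. With the GC correction 36 members were lower and 2 higher, and with coding transcripts only 33 were lower and 3 higher. The shares of all genes belong to the main fit, so member counts under an alternative, here and below, have no matching share beside them. The count called, 28, was 17 without transformed atmospheric library a. The part of base composition in the decline was not tested beyond this correction.

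In the primary stage 17 of 80 nuclear members were lower and 3 higher at 3% oxygen, with a median log2 fold change of -0.26 against 0.08 over all genes. A log2 fold change below 0 was found for 64 of the 80, a share much like that in the transformed stage (65 of 82). Of all 12184 genes tested, 9.46% were lower and 17.2% higher. The lower members were in complex I (7 of 36), complex II (1 of 4), complex III (2 of 9), complex IV (4 of 13) and complex V (3 of 18). Median-ratio rescaling gave 31 lower and 3 higher and the GC correction 28 lower and 3 higher, and without primary atmospheric library a 9 members were called. No member passed the study's thresholds, against 5.3% of all genes, and 34 had an unadjusted p under 0.05. NDUFA4 stood at 103 and 82.6 TPM at atmospheric and at 61.7 and 59.4 TPM at 3% oxygen (log2 fold change -0.61 ± 0.11, adjusted p = 0.00308), so its groups did not overlap. NDUFA1 and NDUFB10, accessory subunits of complex I, had log2 fold changes of -0.56 ± 0.09 (adjusted p = 0.00139) and -0.59 ± 0.12 (adjusted p = 0.00535), and COX5B of complex IV one of -0.75 ± 0.24 (adjusted p = 0.0379). NDUFC1 (-1.33) was called at an adjusted p of 0.0494, and NDUFS7 (-1.11, adjusted p = 0.31) and NDUFB7 (-0.89, adjusted p = 0.325) did not pass.

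All 3 primary members called higher depended on how transcripts were summed. UQCRQ, a small subunit of complex III, stood at 363 and 322 TPM at atmospheric and at 716 and 3119 TPM at 3% oxygen, a log2 fold change of 2.13 ± 0.64 (adjusted p = 0.0306) that was carried by 1 library. Its transcript UQCRQ-205, annotated without a coding sequence, held 525 and 2941 TPM of those values, and with coding transcripts only the log2 fold change was -0.63 (adjusted p = 0.00469). NDUFS6, a complex I subunit, went from 1.45 (adjusted p = 0.0201) to -0.43 (adjusted p = 0.207) in the same way, and NDUFS1 from 0.50 (adjusted p = 0.00175) to 0.10 (adjusted p = 0.685) with its main transcript alone, although with all coding transcripts it was called (0.38, adjusted p = 0.00447). NDUFS3, a core subunit of complex I, was at 508 TPM in 3% library a and at 119 TPM in library b, and its log2 fold change of 1.23 did not pass (adjusted p = 0.138).

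**Figure D2:**
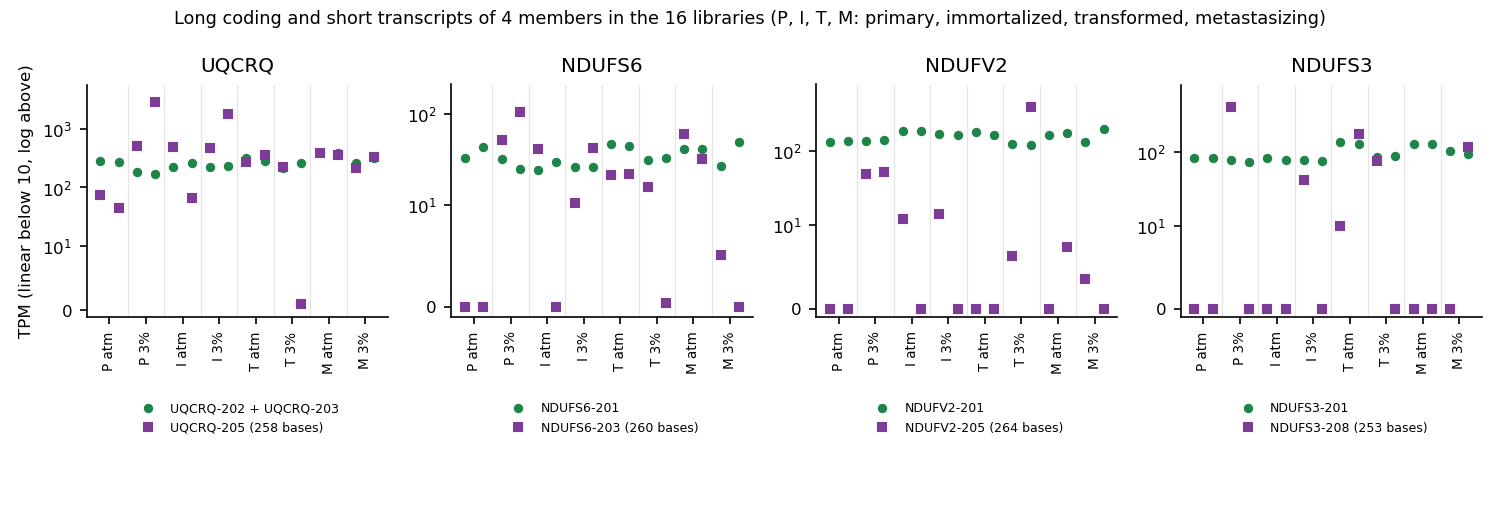
TPM (y axis, linear below 10 and logarithmic above) of the long coding transcripts (green circles) and of 1 short transcript (purple squares) of UQCRQ, NDUFS6, NDUFV2 and NDUFS3 in the 16 libraries (x axis, a and b of each group). The long transcripts stay within a narrow band, while UQCRQ-205 runs from 1.05 to 2941 TPM.

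The short transcripts behind these jumps are 253 to 264 bases long, and the labels give average insert sizes of 264 to 364 bases, so they are no longer than the average fragment of any library. NDUFV2-205 held 383 TPM in transformed 3% library b and at most 52.1 TPM elsewhere, and NDUFS3-208 held 414 TPM in primary 3% library a and 0 in 10 of the other libraries. The long transcripts NDUFV2-201 (120 to 195 TPM), NDUFS6-201 (24.2 to 50.1 TPM) and NDUFS3-201 (75.1 to 137 TPM) varied far less.

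In the immortalized stage few nuclear members were called. Of 80 tested, 6 were higher and 1 lower at 3% oxygen, against 17.7% higher and 8.82% lower over all 12049 genes, and their median was 0.06 against 0.11. None passed the study's thresholds, against 4.91% of all genes, and 13 had an unadjusted p under 0.05. The members called were small in size: ATP5F1B (0.31), NDUFB3 (0.36), NDUFA9 (0.33), ATP5MC1 (0.30), ATP5MK (0.29) and NDUFS1 (0.27) higher and COX7A2L lower (-0.37 ± 0.11, adjusted p = 0.0309). After median-ratio rescaling 4 were lower and 0 higher, after quantile normalization 2 lower and 0 higher, after the GC correction 6 lower and 2 higher, and without immortalized atmospheric library b no member was called. In a fit of only these groups 11 members were called, and with array weights 19. UQCRHL (2.03), UQCRQ (1.31) and NDUFA13 (0.70) had the largest positive log2 fold changes and NDUFB7 (-0.68), NDUFS7 (-0.62) and NDUFA11 (-0.61) the largest negative ones, and none of these 6 passed (adjusted p from 0.149 to 0.589).

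In the metastasizing stage 9 of 81 nuclear members were lower and 4 higher at 3% oxygen, with a median of -0.14 that lay beside the median of all genes, -0.13. Of all 12288 genes, 17.2% were lower and 10.9% higher. Median-ratio rescaling, which removes the shift of all genes, gave 1 lower and 10 higher, and the GC correction 5 lower and 10 higher, so the direction of the members as a group depends on the scaling. None passed the study's thresholds, against 7.66% of all genes, and 23 had an unadjusted p under 0.05. The count called was 2 without metastasizing atmospheric library a and 27 without 3% library b, and 1 in a fit of these groups alone. Of the 10 fibroblast markers, 8 were lower at 3% oxygen in this stage (mean sum 5586 against 6748 TPM). The mean sum was lower at 3% oxygen in the other stages too: 20909 against 25344 TPM (primary), 18162 against 19140 TPM (immortalized) and 5201 against 7320 TPM (transformed). There 2 markers were called lower in each stage, with 0, 1 and 2 higher in that order. The part of the markers in the oxygen results was not tested.

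COX4I1 (chr16:85832239-85840674, plus strand), the common form of subunit IV of complex IV, stood apart in this stage. It was at 387 and 352 TPM in the metastasizing atmospheric libraries and at 638 and 720 TPM at 3% oxygen, a log2 fold change of 0.88 ± 0.10 (adjusted p = 0.000153). Both atmospheric libraries were below all 14 others, which ran from 470 to 739 TPM, and the call was kept under every alternative run. COX4I2, the form known to replace it at low oxygen, reached at most 0.158 TPM in any library. NDUFA4 was at 55.6 and 54.4 TPM at atmospheric and at 39.6 and 41.4 TPM at 3% oxygen (log2 fold change -0.44 ± 0.11, adjusted p = 0.0149), and after median-ratio rescaling it did not pass (-0.31, adjusted p = 0.0764). SDHA, the flavoprotein of complex II, had a log2 fold change of -0.56 (adjusted p = 0.0362) and COX7B one of -1.0 (adjusted p = 0.0405), and neither passed after rescaling (adjusted p = 0.0577 and 0.0588). ATP5F1B rose slightly (0.30 ± 0.10, adjusted p = 0.0485) and UQCRFS1 fell (-0.30 ± 0.07, adjusted p = 0.0112). NDUFA13 (0.94, adjusted p = 0.446) had 56.5 TPM in 3% library a against 3.17 TPM in library b, and UQCRHL (-1.67), NDUFS7 (-1.37) and NDUFB7 (-1.25) had the largest negative log2 fold changes, none of which passed.

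The difference of the oxygen effect between neighbouring stages was tested as an interaction. From the immortalized to the transformed stage the effect was more negative for 23 of 82 nuclear members and more positive for 1 (adjusted p under 0.05), against 18.3% and 13.7% of all genes, and 3 members passed the study's thresholds, against 12% of all genes. They were ATP5F1B, with a difference of -1.05 ± 0.14 on the log2 scale (adjusted p = 0.000419), NDUFB3, with -1.04 ± 0.17 (adjusted p = 0.000958), and COX7A2L, with 1.16 ± 0.16 (adjusted p = 0.000384). NDUFB3 (chr2:201936156-201950473, plus strand), an accessory subunit of complex I, went from 67.5 and 67.1 TPM to 88.2 and 84.6 TPM at 3% oxygen in the immortalized stage and from 90 and 87.1 TPM to 56.1 and 53.7 TPM in the transformed stage. These directions were opposite and no group overlapped its partner. After median-ratio rescaling the differences of ATP5F1B (-0.93) and NDUFB3 (-0.92) were short of the fold threshold, and after quantile normalization they were -0.75 and -0.92, while COX7A2L passed under both (1.28 and 1.33).

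From the primary to the immortalized stage 9 of 81 members had a more positive oxygen effect and 0 a more negative one, against 3.97% and 3.7% of all genes, while 24 had an unadjusted p under 0.05 and none passed the study's thresholds, against 1.86% of all genes. From the transformed to the metastasizing stage it was more positive for 17 of 82 members and more negative for 2, against 9.53% and 15.8% of all genes. ATP5F1B alone passed the study's thresholds there (1.04 ± 0.14, adjusted p = 0.000682), against 8.46% of all genes. It did not pass after quantile normalization (0.67), with its main transcript alone (0.98), in a fit of only these groups, or without transformed (0.97) or metastasizing (0.88) 3% library b, and after median-ratio rescaling 4 members passed. These comparisons share the transformed libraries and are not independent of each other.

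**Figure D3:**
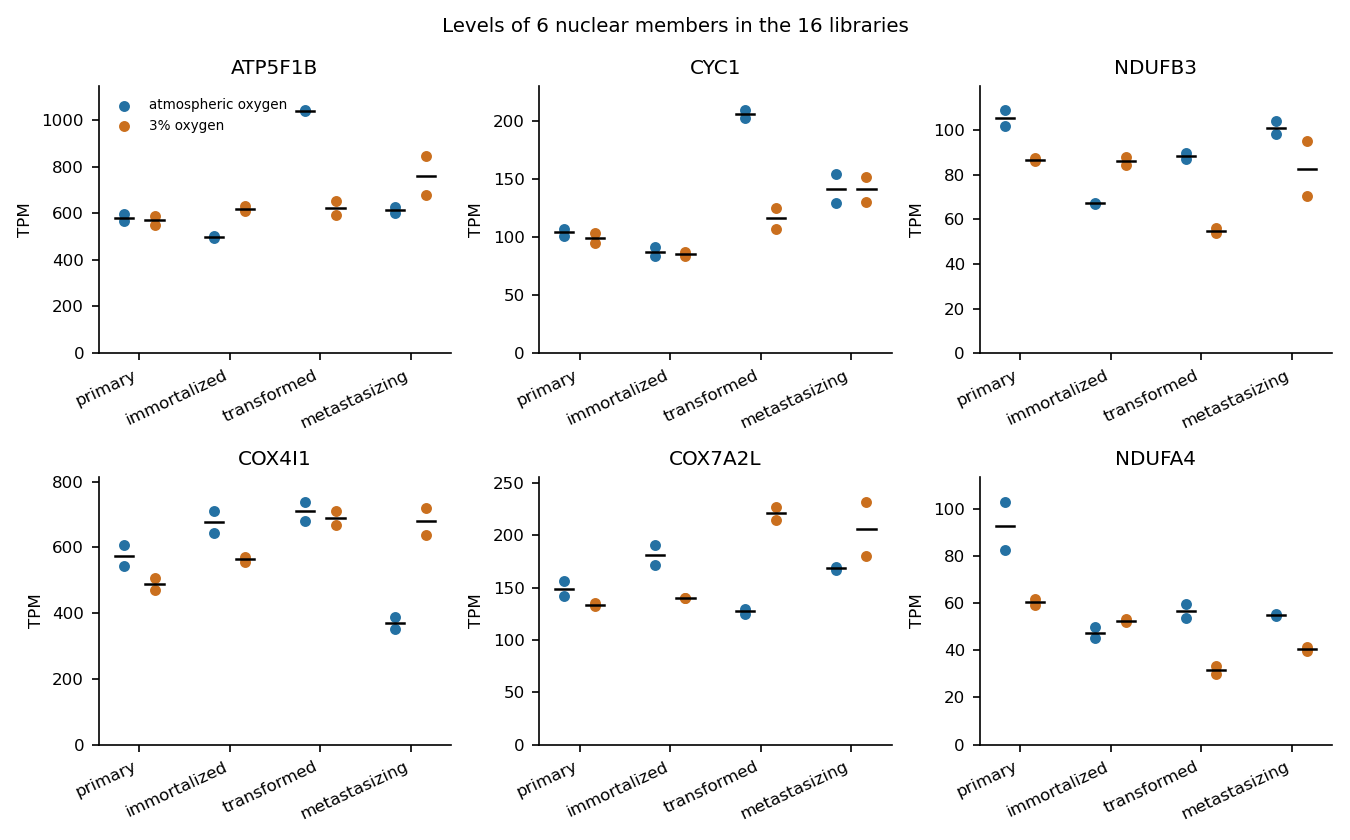
TPM (y axis) of 6 nuclear members in the 16 libraries by stage (x axis); blue points are atmospheric and orange points 3% oxygen libraries, and black bars are group means of 2 libraries. ATP5F1B and CYC1 are highest in the transformed atmospheric libraries (1041 and 1036 TPM, and 209 and 202 TPM), and COX4I1 is lowest in the metastasizing atmospheric libraries (387 and 352 TPM).

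The stage steps compare neighbouring stages at a fixed oxygen level. Neighbouring stages are different cell lines, so the part of the introduced element in the changes at a step was not tested. At the atmospheric step from the immortalized to the transformed stage, 37 of 81 nuclear members were higher and 4 lower. Their median was 0.47 against 0.22 over all genes. Of all 12387 genes, 34.7% were higher and 21.2% lower. Complex I had 16 higher members (of 36), complex II 2 (of 4), complex III 6 (of 10), complex IV 4 (of 13) and complex V 9 (of 18). After median-ratio rescaling, which takes out the shift of 0.22, 25 were higher and 13 lower, and after quantile normalization 30 and 7. By the study's thresholds 8 members were called, against 24.3% of all genes. The summed level of the 10 fibroblast markers moved at this step too, from a mean of 19140 to 7320 TPM with 6 markers lower and 2 higher, and its part in the members' change was not tested.

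Of these 8, 7 rose: ATP5MF-PTCD1 (log2 fold change 1.44 ± 0.38), CYC1 (1.23 ± 0.12), ATP5F1C (1.19 ± 0.10), NDUFA9 (1.13 ± 0.10), NDUFS8 (1.11 ± 0.17), ATP5F1B (1.06 ± 0.10) and COX8A (1.01 ± 0.28), with adjusted p from 1.92e-06 to 0.00947. These values are from the main fit and include the median shift of all genes, 0.22. Calls by the study's thresholds after rescaling are not given for this step. ATP5F1C, the gamma subunit that forms the rotor shaft of ATP synthase, stood at 145 and 133 TPM in the immortalized and at 325 and 311 TPM in the transformed libraries. NDUFA9, an accessory subunit at the junction of the arms of complex I, went from 59.5 and 60.9 TPM to 132 and 132 TPM, and NDUFS8, an iron-sulfur core subunit, from 65 and 84.7 TPM to 166 and 156 TPM. In these 3 genes no immortalized library reached a transformed one, which adds no support, since they were named for passing the thresholds. The main transcript ATP5F1C-202 went from 28.8 and 35.3 TPM to 257 and 247 TPM at this step. ATP5F1C-201, also coding, went the other way, from 107 and 93 TPM to 53.4 and 50.4 TPM. Of the NDUFA9 level, 58.2% to 76.4% in a library came from transcripts not annotated as coding. ATP5MF-PTCD1 is a readthrough transcript that shares sequence with ATP5MF, and its levels (at most 8.67 TPM) are uncertain. SDHB, the iron-sulfur subunit of complex II, rose by 1.0 ± 0.10 (adjusted p = 1.25e-05) and NDUFV1 by 0.99 ± 0.19 (adjusted p = 0.00119), just short of the fold threshold.

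COX7A1 (chr19:36641824-36643351, minus strand), the heart and muscle form of subunit VIIa of complex IV, was the member that fell at this step past the study's thresholds. At atmospheric oxygen it stood at 63.6 and 59.6 TPM in the primary, 19.9 and 26 TPM in the immortalized, 1.68 and 1.39 TPM in the transformed and 0.425 and 0 TPM in the metastasizing libraries. No library of one stage overlapped the next. The log2 fold change was -1.42 ± 0.40 at the first step (adjusted p = 0.0177), -3.52 ± 0.40 at the second (adjusted p = 2.71e-05) and -1.58 ± 0.40 at the third (adjusted p = 0.0201), the last between levels near or under 1 TPM. At 3% oxygen it stood at 63.3 and 51.3, 24 and 25.6, 1.23 and 0.421, and 0.351 and 1.41 TPM in the same order of stages, and the step to the transformed stage was -4.33 ± 0.40 (adjusted p = 1.13e-05). COX6A2, the muscle form of subunit VIa, was at 0 in all 16 libraries, and the muscle markers DES, MYH1, ACTA1 and MYOD1 summed to at most 2.26 TPM. COX7A2, the form of subunit VIIa found in most tissues, stood between 30.1 and 81.5 TPM, with its main transcript not among those matched. COX6A1, the common form of subunit VIa, rose at the step to the transformed stage (0.59 ± 0.18, adjusted p = 0.0179), the testis form COX6B2 stayed at or under 1.51 TPM, and COX8C, the testis form of COX8A, at or under 0.313 TPM.

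The remaining atmospheric steps moved fewer members. From the primary to the immortalized stage 14 of 80 were lower and 4 higher, with a median of -0.24 against -0.09, and 20.2% of all 12388 genes were lower and 16.1% higher. None passed the study's thresholds, against 12.2% of all genes, and 34 had an unadjusted p under 0.05. NDUFA4 (-0.95 ± 0.11, adjusted p = 7.97e-05) and ATP5F1C (-0.95 ± 0.10, adjusted p = 2.68e-05) fell most clearly, and ATP5F1C went from 282 and 255 TPM to 145 and 133 TPM. Median-ratio rescaling gave 10 lower and 6 higher and quantile normalization 9 and 5, and without immortalized atmospheric library a 7 members were called.

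From the transformed to the metastasizing stage at atmospheric oxygen 10 of 82 were lower and 6 higher, with a median of -0.01 against 0.06, and 7.61% of all 12203 genes were lower and 11.8% higher. None passed the study's thresholds, against 4.12% of all genes, and 22 had an unadjusted p under 0.05. COX4I1 (-0.94 ± 0.10, adjusted p = 0.000141) and ATP5F1B (-0.76 ± 0.10, adjusted p = 0.000612) fell, while NDUFA5 (0.52) and COX7C (0.44) rose. Median-ratio rescaling gave 11 lower and 4 higher and the GC correction 14 and 3, and without metastasizing atmospheric library b 3 members were called.

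At 3% oxygen 19 of 82 nuclear members were higher and 14 lower at the step to the transformed stage, with a median of 0.11 equal to that of all genes. Of all 12396 genes, 25.9% were higher and 19.2% lower. Quantile normalization gave 22 higher and 10 lower and median-ratio rescaling 13 and 16, so the balance of directions depends on the scaling. ATP5F1C rose by 0.91 ± 0.10 (adjusted p = 2.69e-05) and SDHA by 0.71 ± 0.18 (adjusted p = 0.00769), whereas ATP5F1B had 629 and 609 TPM before and 654 and 590 TPM after the step. NDUFB3 (-0.65 ± 0.12, adjusted p = 0.00108) and NDUFA4 (-0.72 ± 0.11, adjusted p = 0.000419) fell. From the primary to the immortalized stage 12 of 81 were higher and 3 lower, against 13.1% and 16.5% of all genes, with COX7C (0.64 ± 0.10, adjusted p = 0.000718) and NDUFB8 (0.55 ± 0.12, adjusted p = 0.00559) among those higher. From the transformed to the metastasizing stage 18 of 80 were higher and 0 lower, with 31 at an unadjusted p under 0.05, against 11.4% and 16.2% of all genes, and NDUFB9 rose by 0.57 ± 0.08 (adjusted p = 0.000465). The fibroblast markers moved at these steps as well. At the step to the transformed stage 9 of 10 were lower (median -2.31) and their mean sum went from 18162 to 5201 TPM, and at the step to the metastasizing stage 4 were lower and 1 higher. Their part in the members' changes was not tested. The count of this last step was 0 in a fit of these groups alone and 30 after median-ratio rescaling. Without 1 library the 3 counts of members called at these steps fell to 5 (without primary 3% library a), 18 (without immortalized 3% library b) and 8 (without transformed 3% library b), from 15, 33 and 18.

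**Figure D4:**
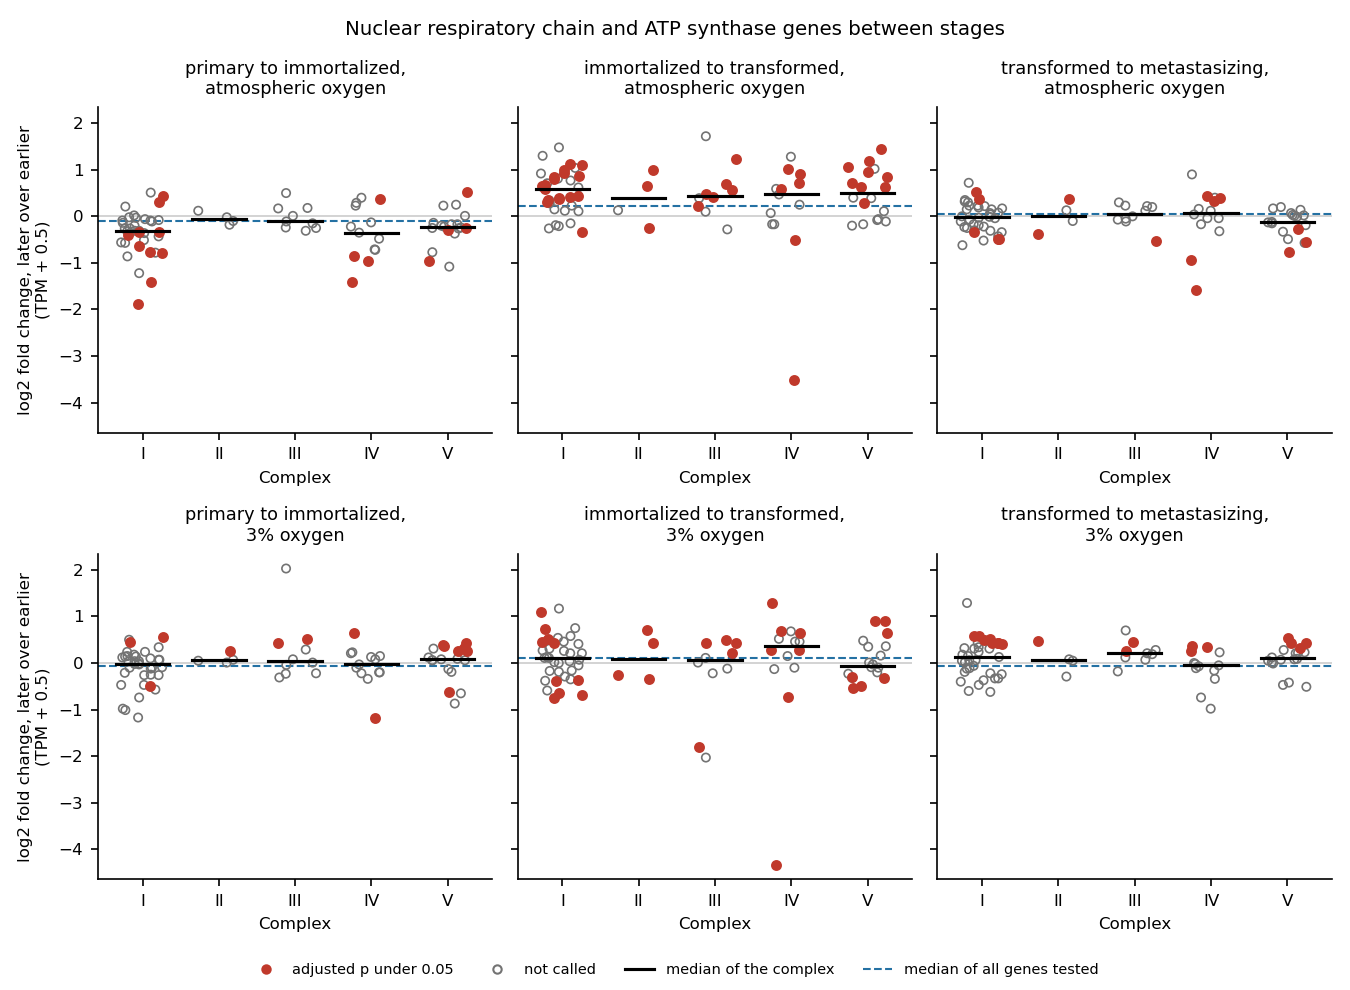
Log2 fold change of each nuclear member between neighbouring stages (y axis, later over earlier, on TPM + 0.5) by complex (x axis), at atmospheric oxygen (upper row) and 3% oxygen (lower row). Each point is a gene, red at an adjusted p under 0.05 (limma), black bars are medians of a complex and dashed lines the median of all genes; the step to the transformed stage at atmospheric oxygen has a median of 0.47, and its lowest point is COX7A1 at -3.52.

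Summed over all nuclear members, the subunits took 1.25% to 1.7% of a library's TPM. Over all nuclear members the primary sums overlapped, at 13862 and 14043 TPM at atmospheric and 12757 and 14636 TPM at 3% oxygen, whereas the transformed sums did not (17023 and 16438 against 13200 and 13823 TPM). UQCRQ alone held up to 3119 TPM of a sum, and without it the sums were 16414 and 15781 TPM in the transformed atmospheric libraries and 12758 and 13555 TPM at 3% oxygen. In the primary stage they were 13499 and 13720 TPM at atmospheric and 12041 and 11516 TPM at 3% oxygen, so without UQCRQ the 3% libraries were the lower ones in both stages and did not overlap the atmospheric ones. The immortalized sums (11756 and 12425 against 12359 and 12222 TPM) and the metastasizing sums (15283 and 14955 against 13077 and 15505 TPM) overlapped. No test was made of these sums, which are scores over the members.

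The 13 mitochondrially encoded members differed widely between the plates of a group. Their sum was 26097 and 25806 TPM in the primary atmospheric libraries but 25918 and 43251 TPM at 3% oxygen, and 28461 and 15455 TPM against 8507 and 26027 TPM in the immortalized stage. The transformed sums were 11566 and 24233 TPM at atmospheric and 17654 and 12705 TPM at 3% oxygen. The libraries of a group differed by up to 3.06 times, and in these 3 stages the oxygen groups overlapped. In the metastasizing stage both 3% libraries (11611 and 14669 TPM) were below both atmospheric ones (20365 and 37640 TPM).

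**Figure D5:**
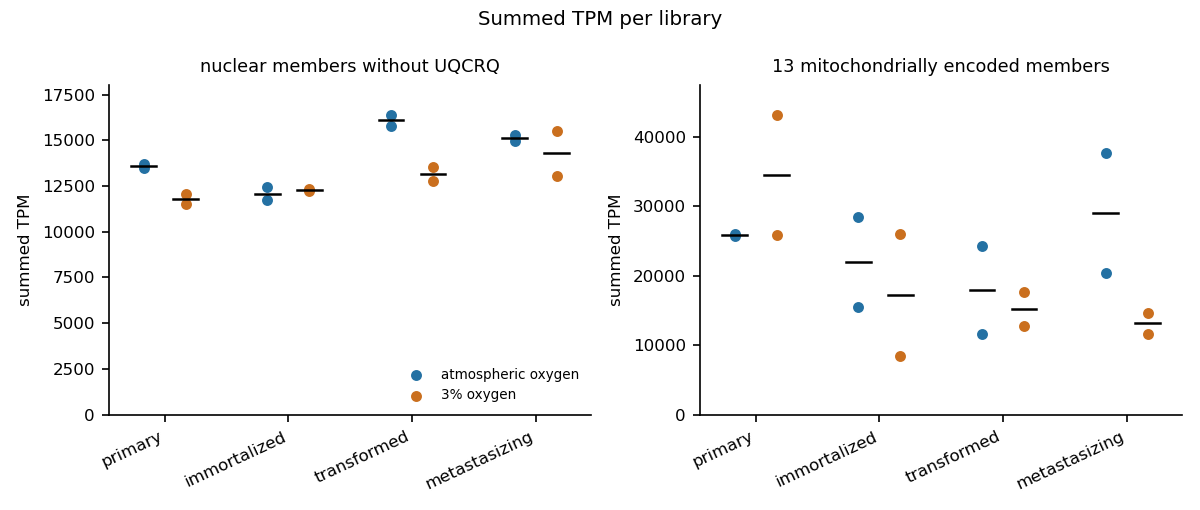
Summed TPM (y axis) of the nuclear members without UQCRQ (left) and of the 13 mitochondrially encoded members (right) in each library, by stage (x axis); blue points are atmospheric and orange points 3% oxygen libraries, and bars are means of 2. The mitochondrial sums run from 8507 to 43251 TPM and spread widely within groups, whereas the nuclear sums of a group lie close together except at 3% oxygen in the metastasizing stage.

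No mitochondrially encoded member passed an adjusted p of 0.05 in any oxygen comparison (limma), although in the metastasizing stage 2 did with the replicate block and 1 with quantile normalization or the GC correction. In the metastasizing stage all 13 had a log2 fold change below 0, with a median of -1.19, and 4 had an unadjusted p under 0.05. MT-CO1, the catalytic subunit of complex IV, was at 3283 and 6455 TPM against 1427 and 1945 TPM (log2 fold change -1.47 ± 0.51, adjusted p = 0.0522). MT-ND4, a proton-pumping subunit of complex I, had -1.63 ± 0.67 (adjusted p = 0.0925), MT-ATP8 had -1.47 ± 0.59 (adjusted p = 0.0849) and MT-ND5 had -1.44 ± 0.61 (adjusted p = 0.102). In the primary, immortalized and transformed stages the medians were 0.46, -0.47 and -0.26, and 0 of 13 had an unadjusted p under 0.05 in each. The log2 fold change was below 0 for 1, 13 and 10 of the 13 in these stages. A direction shared by all 13 was therefore not particular to the metastasizing stage.

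Over the 6 stage steps 1 call was made at an adjusted p under 0.05 (limma), for MT-ND3, which rose from the immortalized to the transformed stage at 3% oxygen, from 671 and 1272 TPM to 1998 and 1502 TPM (0.91 ± 0.32, adjusted p = 0.0406). From the primary to the immortalized stage at 3% oxygen all 13 were below 0 (median -1.26), 6 of them at an unadjusted p under 0.05 (limma). From the transformed to the metastasizing stage at atmospheric oxygen all 13 were above 0 (median 0.81), with 0 at that cut. The medians of the other steps ran from -0.39 to -0.18. In the order of the genes within the sum, MT-CO2 (16.9% to 23.2% of the 13 genes' TPM in a library), MT-CO3 (14.2% to 22.8%) and MT-CO1 (11.8% to 19.4%) had the highest medians, followed by MT-ND4L (10.1% to 19.5%) and MT-ND3 (4.43% to 12.5%), whose ranges overlap their neighbours. The order differed between libraries: MT-CO1 was highest in both primary atmospheric libraries (18.4% and 19.4%) and MT-ND4L in library b at 3% oxygen of the primary (18.4%) and immortalized (19.5%) stages. MT-ATP6 (4.43% to 6.08%), MT-ND4 (3.39% to 6.38%), MT-CYB (2.59% to 4.4%), MT-ND1 (2.35% to 4.33%) and MT-ND2 (2.35% to 4.54%) came next. MT-ND5 (1.33% to 2.72%), MT-ND6 (1.25% to 2.47%), the only one on the light strand, and MT-ATP8 (0.845% to 1.44%) were lowest. MT-ATP8 and MT-ATP6, and MT-ND4L and MT-ND4, overlap in the mitochondrial genome and share messages, so their separate levels are uncertain.

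Genes that build and supply the chain were also mostly lower at 3% oxygen where they were called in the transformed stage. Over all genes, 17.2%, 17.7%, 18.8% and 10.9% were higher and 9.46%, 8.82%, 15.4% and 17.2% lower at 3% oxygen in the primary, immortalized, transformed and metastasizing stages, the shares beside which each list's counts stand. The mitochondrial ribosome, which translates the 13 mitochondrial messages, had 42 of 77 genes lower and 2 higher at 3% oxygen there (median -0.49), and 62 higher and 3 lower at the step to that stage at atmospheric oxygen (median 0.75), where 34.7% of all genes were higher and 21.2% lower (median 0.22). In the other oxygen comparisons 6 were lower and 3 higher (primary), 3 lower and 21 higher (immortalized), and 8 lower and 5 higher (metastasizing). MRPL12 (-1.18) and MRPL24 (-1.12) passed the study's thresholds in the transformed stage. Complex I assembly factors had 8 of 16 lower and 0 higher in the transformed stage (15.4% and 18.8% of all genes), with FOXRED1 (-1.08 ± 0.12, adjusted p = 0.000109) and NDUFAF3 (-1.21 ± 0.18, adjusted p = 0.000585) past the study's thresholds, and 1 lower with 1 higher, 0 with 2, and 2 with 1 in the primary, immortalized and metastasizing stages.

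Of 23 complex IV assembly genes, 7 were lower and 1 higher in the transformed stage (15.4% and 18.8% of all genes), with TACO1, a translational activator of MT-CO1, at -1.03 ± 0.18 (adjusted p = 0.00134). In the primary, immortalized and metastasizing stages 3 with 2, 0 with 5 and 3 with 3 were lower and higher. Of 9 complex III assembly genes, 1 was lower in the primary, transformed and metastasizing stages and 1 higher in the immortalized stage. That gene in the transformed stage was BCS1L, which inserts the iron-sulfur protein, at 55.9 ± 2.81 TPM at atmospheric and 24.7 ± 4.94 TPM at 3% oxygen (SD, n = 2; log2 fold change -1.18, adjusted p = 0.000636). No call was made among 5 ATP synthase assembly genes in any oxygen comparison (limma, medians -0.15 to 0.11), and of 4 complex II assembly genes 1 was higher in the immortalized stage.

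Mitochondrial gene expression factors, 24 genes, had 5 higher and 0 lower at 3% oxygen in the primary, 12 higher and 0 lower in the immortalized, 0 higher and 10 lower in the transformed, and 4 higher and 3 lower in the metastasizing stage. Higher calls took 17.2%, 17.7%, 18.8% and 10.9% of all genes in these stages, so the primary count lay near the share of all genes. TFAM, which packages mitochondrial DNA, rose with 3% oxygen in the primary (0.52, adjusted p = 0.0138), immortalized (0.66, adjusted p = 0.00388) and metastasizing stages (0.38, adjusted p = 0.0472) and had 0.19 (adjusted p = 0.279) in the transformed stage. POLRMT, the mitochondrial RNA polymerase, fell in the transformed stage (-0.84 ± 0.21, adjusted p = 0.0101), and LRPPRC, which stabilizes mitochondrial messages, was not called in any (log2 fold change 0.15 to 0.32). Of the regulators of mitochondrial biogenesis, 7 or 8 of 9 tested, 2, 5, 1 and 1 were higher and 0, 2, 1 and 0 lower in the 4 stages in order, and PPARGC1A, at most 1.38 TPM as a group mean, fell in the immortalized stage (-1.62 ± 0.50, adjusted p = 0.036).

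Among 20 carriers and partners, 0, 7, 3 and 1 were higher and 1, 0, 6 and 0 lower in the 4 stages in order, against 17.2%, 17.7%, 18.8% and 10.9% higher and 9.46%, 8.82%, 15.4% and 17.2% lower over all genes. The count higher in the transformed stage lay near the share of all genes. COQ3, of ubiquinone synthesis, passed the study's thresholds in the transformed stage (-1.21 ± 0.16, adjusted p = 0.000379). CYCS, the cytochrome c that links complexes III and IV, rose in the immortalized stage (0.60 ± 0.18, adjusted p = 0.0295), NDUFAB1, the acyl carrier of complex I, fell in the transformed stage (-0.50 ± 0.16, adjusted p = 0.0359), and ATP5IF1, the inhibitor of ATP synthase, was not called (-0.57 to 0.28).

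Among genes known to answer low oxygen, PDK1, a kinase that blocks the entry of pyruvate into the citric acid cycle, stood at 9.23 ± 0.792 TPM and 39.1 ± 3.17 TPM in the primary stage (SD, n = 2; log2 fold change 2.02 ± 0.18, adjusted p = 4.87e-05) and rose in the immortalized (1.22, adjusted p = 0.000928) and transformed stages (1.21, adjusted p = 0.000649), with 0.34 (adjusted p = 0.182) in the metastasizing stage. BNIP3, a receptor for removal of mitochondria, rose in the same 3 stages (1.84, 1.55 and 1.90) and had 0.11 in the metastasizing stage (adjusted p = 0.697), and BNIP3L rose in all 4 stages, most in the transformed one (2.10 ± 0.12, adjusted p = 3.97e-06). HIGD1A fell in the transformed stage (-0.55 ± 0.09, adjusted p = 0.000783) and LONP1, the matrix protease, was not called (-0.16 to 0.32). NDUFA4L2, known as a partner that replaces NDUFA4 in hypoxia, stayed at or under 3.34 TPM as a group mean and was not called in any stage (log2 fold changes -1.33, -1.35, 1.32 and -0.15, adjusted p from 0.0562 to 0.849). Of the list's 9 genes tested, 5, 4, 3 and 1 were higher and 1, 1, 2 and 2 lower in the primary, immortalized, transformed and metastasizing stages.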

How the data were processed

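Stranded mRNA libraries of the 16 samples were quantified by the authors with kallisto 0.42.1 on GRCh37 transcripts, and the deposited table holds TPM for 180253 transcripts. TPM keep no read counts, so the depth per library is unknown, and the study's test of estimated counts (tximport and edgeR) was not repeated. Transcripts were joined to GENCODE 44 by identifier (151453 matched, 88.2% to 90.1% of each library's TPM) and summed per gene. All columns were mapped to samples by name.

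Log2(TPM + 0.5) of protein-coding genes was fitted with limma 3.58.1 (R 4.3.3), a moderated test with an intensity trend and 1 coefficient for each of the 8 groups (8 residual degrees of freedom). Genes whose mean reached 1 TPM in either group were tested, and p-values were adjusted over all of them (Benjamini-Hochberg). The scripts were tested on simulated data. Members and lists were chosen with earlier results of these data known. Genes were named where they were mitochondrially encoded, passed the study's thresholds, had one of the 3 largest rises or falls in an oxygen comparison, or were isoform pairs or core subunits, and other members were chosen after their values were seen. The lists covered assembly factors of each complex, mitochondrial gene expression, regulators, carriers, the mitochondrial ribosome, oxygen-responsive genes and cell type markers. Alternatives varied the pseudocount, filter, scaling, transcripts summed, samples fitted, replicate block, trend, weights, GC correction and each library left out. Shares of all genes called are given for the main fit only. Values of 1 member are not reported here.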

Additional observations from a re-analysis of the deposited data

Results flagged for a closer look

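The oxygen effect differed between neighbouring stages, by the interaction test (limma, Benjamini-Hochberg) at the study's thresholds, for 3 members. From the immortalized to the transformed stage 3 of 82 members passed, against 12% of all genes. From the transformed to the metastasizing stage 1 of 82 passed, against 8.46%. ATP5F1B differed by -1.05 ± 0.14 (SE, adjusted p = 0.000419) on the log2 scale between the immortalized and the transformed stage and by 1.04 ± 0.14 (adjusted p = 0.000682) between the transformed and the metastasizing stage. Both differences use the transformed libraries. COX7A2L differed by 1.16 ± 0.16 (adjusted p = 0.000384) and NDUFB3 by -1.04 ± 0.17 (adjusted p = 0.000958) between the immortalized and the transformed stage. Of these 3 members, COX7A2L alone passed for that pair of stages after median-ratio rescaling or quantile normalization. For the later pair ATP5F1B did not pass after quantile normalization.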

How the results depend on the processing

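The members called in an oxygen comparison numbered 20 (primary), 7 (immortalized), 28 (transformed) and 13 (metastasizing) at an adjusted p under 0.05. In the primary stage the count was 34 with median-ratio rescaling, 31 with the GC correction, 13 without a trend and 12 with the main (canonical) transcript only. In the immortalized stage it was 4 without a filter, with median-ratio rescaling, without the mitochondrial genes and with the canonical transcript, 2 with quantile normalization, 11 in a fit of only these groups, 19 with array weights and 0 without a trend. In the metastasizing stage it was 8 with quantile normalization, 1 in a fit of only these groups and with array weights, 7 without a trend and 6 with the canonical transcript, and the mitochondrial members called, 0 in the main analysis, were 1 with quantile normalization or the GC correction. By the study's thresholds, 0 became 1 in the immortalized stage with the canonical transcript, 1 (only these groups, GC correction) or 2 (canonical) in the transformed stage, and 1 in the metastasizing stage with median-ratio rescaling. The causes were not tested.

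Array weights gave 34 members called, not 18, at the first atmospheric step. At the last step at 3% oxygen, 18 became 30 with median-ratio rescaling, 29 with the GC correction, 3 with array weights and 0 in a fit of only these groups. Of the interactions, immortalized minus primary went from 0 to 1 with the canonical transcript. Transformed minus immortalized went from 3 to 1 with median-ratio rescaling or quantile normalization and to 6 with the canonical transcript. Metastasizing minus transformed went from 1 to 4 with median-ratio rescaling, 0 with quantile normalization or only these groups, 5 with the canonical transcript and 2 with the GC correction. The log2 ratio of summed nuclear TPM went from -0.03 to -0.13 (median-ratio) and -0.25 (coding transcripts) in the primary and from 0.12 to -0.01 and 0.02 in the immortalized stage.

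Of the named members' called fold changes, those that were reversed were reversed by the choice of transcripts. With coding transcripts only, reversed log2 fold changes were NDUFS6 -0.43 and UQCRQ -0.63 with oxygen in the primary stage, ATP5PB 0.58 at the first atmospheric step, UQCRC1 -0.23 at the first, UQCRQ 0.04 at the second and NDUFA7 -0.02 at the last step at 3% oxygen. With the canonical transcript they were NDUFS6 -0.43, UQCRQ -0.82 and COX6C 0.23 in the primary stage, NDUFS1 0.42 and NDUFA10 0.08 in the transformed stage, and NDUFS1 -0.30 and NDUFC1 0.10 at the first atmospheric step. At 3% oxygen they were UQCRC1 -0.23, ATP5MC1 -0.15 and ATP5MK -0.14 at the first step, UQCRQ 0.81 and COX5A -0.19 at the second, and NDUFA10 -0.46, COX6C -0.20 and NDUFA7 -0.02 at the last.

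Leaving out 1 library in turn (its partner then assumed to vary like the other groups), the members called ranged from 9 to 32 (primary), 0 to 12 (immortalized), 17 to 37 (transformed) and 2 to 27 (metastasizing) with oxygen. They ranged from 7 to 33, 30 to 43 and 3 to 21 at the atmospheric steps and from 5 to 19, 18 to 36 and 8 to 25 at the steps at 3% oxygen. Without metastasizing 3% library a came the upper ends for the primary, immortalized and transformed stages with oxygen. The same held for the first and last atmospheric steps and for every step at 3% oxygen. The array weight of the metastasizing 3% libraries was 0.241, against 0.68 to 2.05 in the other groups. The part of this group in the counts was not tested. By the study's thresholds each oxygen comparison ranged from 0 to 1, and the interactions from 0 to 0, 3 to 6 and 0 to 3. The mitochondrial members called ranged from 0 to 2 in the metastasizing stage and stayed at 0 in the others. The log2 ratio of sums ranged, by stage in order, from -0.13 to 0.07, 0.05 to 0.18, -0.34 to -0.28 and -0.23 to 0.02 for the nuclear members, and from -0.00 to 0.74, -1.37 to 0.25, -0.67 to 0.39 and -1.52 to -0.63 for the mitochondrial ones.

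The replicate letters were not shown to pair the plates: deviations of same-lettered libraries correlated at -0.142, -0.0963, -0.0708 and -0.0925 in the 4 stages. With the replicate block the immortalized count was 4, the metastasizing mitochondrial count was 2, and the other counts of members called stayed within 1.5 times. With the letters crossed the immortalized count was also 4. With 2 plates a group and depth unknown, small changes of low members were not detectable.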
